A study of Mus musculus and Homo sapiens with 107 samples.

Results

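The 10 genes described here encode core and associated subunits of SWI/SNF chromatin remodelling complexes: SMARCB1 (ENSG00000099956), SMARCC1 (ENSG00000173473), SMARCC2 (ENSG00000139613), SMARCD1 (ENSG00000066117), SMARCD2 (ENSG00000108604), SMARCD3 (ENSG00000082014), SMARCE1 (ENSG00000073584), ACTL6A (ENSG00000136518), SS18 (ENSG00000141380) and BCL7A (ENSG00000110987). They were chosen by Ensembl identifier, by a rule on subunit membership that uses no measured value, from the raw gene count tables of A549 (24353 rows) and H1299 (24019 rows), and all 10 were present in both tables among the 22842 shared identifiers. Both A549 and H1299 are established lung cancer lines of human origin. Their genotype label is wt, and they are known from other work to lack functional BRG1. Cells were given BRM014, an allosteric inhibitor of the SWI/SNF ATPases BRM and BRG1, at 5 µM for 12 h, or DMSO, its solvent, for the same time. There were 3 libraries in each of the 4 groups of line and treatment. The sample titles give DMSO at 0.05% and the treatment field gives 0.5%. The remaining 95 of the 107 samples of the series, from other cells, were not analysed here.

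SWI/SNF complexes use the energy of ATP to slide or eject nucleosomes, and so keep enhancers and promoters open. A core module forms first. SMARCC1 and SMARCC2 pair with each other or with themselves as its base, 1 member of the SMARCD family joins them, and SMARCB1 and SMARCE1 are added in the forms of the complex called BAF and PBAF. This core then takes up the ATPase, BRM or BRG1, with a module of smaller subunits that includes ACTL6A, SS18 and BCL7A. By this textbook account 7 of the 10 genes encode the core module itself and the other 3 encode partners of the ATPase. The values below are mRNA levels of these genes, not amounts of protein or of assembled complex.

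Total counts per library ran from 40684360 to 50177678 in the A549 controls and from 42417643 to 44910378 in treated A549 cells. For H1299 they ran from 28412113 to 40072734 in controls and from 30602193 to 41780029 in treated cells. At this depth no member fell below 297 counts in any library, and all 10 passed the filter on low counts in both lines. Headers of 2 A549 BRM014 columns are the same, so these libraries carry no replicate number and are called a and b in column order. Library a and A549 DMSO replicate 1 deviated from their group means together over all genes at 5 CPM or more (r = 0.69). The replicates numbered 3 of the A549 groups did so with r = 0.48, and DMSO replicate 2 with BRM014 replicate 3 with r = 0.41. DMSO replicate 1 with BRM014 replicate 3 had r = -0.63. Library a had r = -0.42 and -0.56 with DMSO replicates 2 and 3. Library b had r = -0.20, 0.07 and 0.20 with DMSO replicates 1, 2 and 3. Deviations within a group sum to 0, so these values depend on each other and cannot show which libraries are paired. The A549 fold changes were also computed without both DMSO replicate 1 and library a. The sources do not state whether replicates came from separate cultures. Each p-value therefore measures variation among libraries, which may be technical. In bulk RNA, a change in the number of cells that express a gene and a change in RNA per cell cannot be told apart. Lengths of the transcripts were not used here, so levels are compared between libraries, for 1 gene at a time or as a sum, and not between genes.

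In A549 the core subunit genes changed little under BRM014. SMARCD2 fell by 0.15 and SS18 rose by 0.16 on the log2 scale, and the other 8 genes did not pass the test, which took adjusted p below 0.05 in edgeR. The share called was 2 of 10 members, 1 higher and 1 lower, where 37% of all 15188 genes tested were called, 17.7% higher and 19.4% lower. The median absolute log2 fold change was 0.09 over the members and 0.16 over all genes tested. The genes tested were not matched to the members by level. The filter admits genes with counts far below those of the members, where fold changes are less precise. This limit holds for each comparison with all genes, here and below. The signed medians were -0.0021 and 0.02. Summed over the 10 genes, the level was 789 ± 10.9 CPM with DMSO and 790 ± 9.34 CPM with BRM014 (SD, n = 3 libraries). CPM is the count scaled to library size, after TMM scaling among the libraries of a line. Genes with high CPM weigh most in this sum, and opposite changes cancel in it. It therefore does not show that the total amount of subunits was kept.

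SMARCD2 encodes a member of the SMARCD (BAF60) family, whose members replace each other in the core and which link it to transcription factors. In A549 it stood at 138, 133 and 136 CPM in DMSO replicates 1, 2 and 3, and at 124, 121 and 122 CPM in BRM014 libraries a, b and replicate 3. All treated libraries lay below all control libraries. The log2 fold change was -0.15 (standard error 0.04, 95% interval -0.23 to -0.07, adjusted p = 0.0076 in edgeR). A larger absolute change was seen in 52.7% of the genes tested in this line. The call was lost when libraries were scaled by their totals alone (log2 fold change -0.10, adjusted p = 0.055).

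SS18 encodes a subunit bound to the ATPase, known as the fusion partner of SSX in synovial sarcoma. Its level in A549 was 84.8, 86.5 and 88.4 CPM in DMSO replicates 1, 2 and 3. With BRM014 it was 98.1 CPM in library a, 97.7 CPM in library b and 94.4 CPM in replicate 3, again without overlap between the groups. The log2 fold change was 0.16 (standard error 0.04, 95% interval 0.07 to 0.25, adjusted p = 0.0082 in edgeR). Without both libraries a and b, a choice made after seeing the data that leaves 1 treated library and assumes that it varies like the controls, it was 0.10 with adjusted p = 0.313.

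In 5 members the CPM of treated and control A549 libraries did not overlap, where this held for 48.2% of all genes tested. Besides SMARCD2 and SS18 they were SMARCC1, SMARCC2 and SMARCD3, which did not pass the test. SMARCC1, the base of the core, had 138 ± 3.44 CPM with DMSO and 129 ± 3.63 CPM with BRM014 (SD, n = 3; log2 fold change -0.10, 95% interval -0.18 to -0.0091, adjusted p = 0.080 in edgeR). Its paralog SMARCC2 had 106 ± 3.57 and 115 ± 4.03 CPM (log2 fold change 0.11, 0.02 to 0.21, adjusted p = 0.066). SMARCD3, the BAF60 member best known from heart and muscle, had 15.9 ± 1.47 and 18.0 ± 0.278 CPM (log2 fold change 0.18, 0.02 to 0.34, adjusted p = 0.075). A549 DMSO replicate 1 was the highest control for SMARCC2 and SMARCD3, and without it both passed (adjusted p = 0.031 and 0.012 in edgeR), which brought the members called to 4. Other libraries moved them the other way: without library a the log2 fold change of SMARCC2 was 0.07 (adjusted p = 0.288), and without DMSO replicate 3 that of SMARCD3 was 0.12 (0.251). With libraries scaled by totals SMARCC2 (0.012) and SMARCD3 (0.023) passed, and in the joined fit of both lines SMARCC1 did (0.015). Without both DMSO replicate 1 and library a, chosen after seeing the data, 4 members passed as well, among them SMARCC1 (adjusted p = 0.032) and SMARCD3 (0.0065), while SMARCD2 and SS18 kept their calls (0.00065 and 0.023).

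The remaining 5 genes overlapped between the groups in A549. SMARCB1 encodes the subunit lost in rhabdoid tumours, and it had 31.1 ± 2.19 CPM with DMSO and 30.6 ± 2.16 CPM with BRM014 (SD, n = 3), with a 95% interval of the log2 fold change from -0.17 to 0.13. The interval was -0.10 to 0.10 for SMARCD1, the broadly expressed BAF60 member. It was -0.12 to 0.12 for SMARCE1, which encodes an HMG-box protein that contacts DNA. For ACTL6A, an actin-like protein that joins actin on the ATPase, it was -0.04 to 0.20, and for BCL7A, a small subunit of the ATPase module that is mutated in some lymphomas, -0.23 to 0.05. A fall of the size seen in SMARCD2 lies within the intervals of SMARCB1 and BCL7A, and outside those of SMARCD1, SMARCE1 and ACTL6A.

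In H1299 the member with the widest response was SMARCD3, which rose 1.31-fold. SMARCC2 and SMARCD2 rose by 0.09 and SMARCD1 fell by 0.11 on the log2 scale, and the other 6 genes did not pass. The share called was 4 of 10 members, where 22% of all 14986 genes tested were called. By direction, 3 members were higher and 1 was lower, where 9.29% of all genes were higher and 12.7% were lower. The median absolute log2 fold change was 0.05 over the members and 0.10 over all genes tested, and the signed medians were -0.0054 and 0.0029. The 10 genes summed to 1099 ± 12.8 CPM with DMSO and 1102 ± 5.36 CPM with BRM014 (SD, n = 3). This sum has the same limits as that in A549.

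SMARCD3 in H1299 had 10.3, 10.1 and 10.6 CPM in DMSO replicates 1, 2 and 3, from 297 to 408 counts. With BRM014 it had 13.8, 13.9 and 12.7 CPM in replicates 1, 2 and 3, from 409 to 585 counts. Every treated library was above every control library. The log2 fold change was 0.38 (standard error 0.08, 95% interval 0.23 to 0.54, adjusted p = 0.00025 in edgeR), and 12.9% of the genes tested in H1299 had a larger absolute change. The call held in 14 of 14 alternatives, with log2 fold changes from 0.36 to 0.43.

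The other members of the BAF60 family moved in opposite directions in H1299. SMARCD1 had 161, 157 and 156 CPM in DMSO replicates 1, 2 and 3, and 145, 146 and 147 CPM in the BRM014 replicates. The groups were apart, with a log2 fold change of -0.11 (standard error 0.03, adjusted p = 0.0079 in edgeR). SMARCD2 had 120, 118 and 122 CPM with DMSO and 128, 130 and 126 CPM with BRM014, in the same order of replicates. It was higher in every treated library, by a log2 fold change of 0.09 (standard error 0.03, adjusted p = 0.048).

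Of the core dimer, SMARCC2 was the member that passed in H1299. It had 144, 143 and 145 CPM in DMSO replicates 1, 2 and 3, and 153, 148 and 158 CPM in the BRM014 replicates. The groups did not overlap, and the log2 fold change was 0.09 (standard error 0.03, adjusted p = 0.045 in edgeR). SMARCC1 had 269 ± 3.48 CPM with DMSO and 269 ± 5.37 CPM with BRM014 (SD, n = 3), with a 95% interval of the log2 fold change from -0.06 to 0.06.

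The smaller H1299 calls lay close to the threshold. SMARCC2 lost its call in 8 of 14 alternatives and SMARCD2 in 10 of 14, with the sign kept in each. SMARCC2 lost it without any of DMSO replicates 1, 2 and 3 and BRM014 replicates 1 and 3 (adjusted p from 0.063 to 0.236 in edgeR). SMARCD2 lost it without any of the 6 libraries (0.058 to 0.184). SMARCD1 lost its call without DMSO replicate 1 (0.084), with library totals (0.055) and in the joined fit of both lines (0.066).

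In 5 members the H1299 groups did not overlap, where 35.2% of all genes tested did not. The fifth, beside the 4 called, was BCL7A, with 54.5, 53.3 and 55.1 CPM in DMSO replicates 1, 2 and 3 and 51.3, 50.3 and 49.7 CPM in the BRM014 replicates. Its log2 fold change was -0.11 (95% interval -0.19 to -0.02), with adjusted p = 0.061 in edgeR. SS18, which rose in A549, had 132 ± 3.64 CPM with DMSO and 133 ± 1.92 CPM with BRM014 in H1299 (SD, n = 3; 95% interval -0.05 to 0.08). The intervals of SMARCB1 (-0.10 to 0.06), ACTL6A (-0.08 to 0.07) and SMARCE1 (-0.14 to 0.12) included 0 as well.

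**Figure D1:**
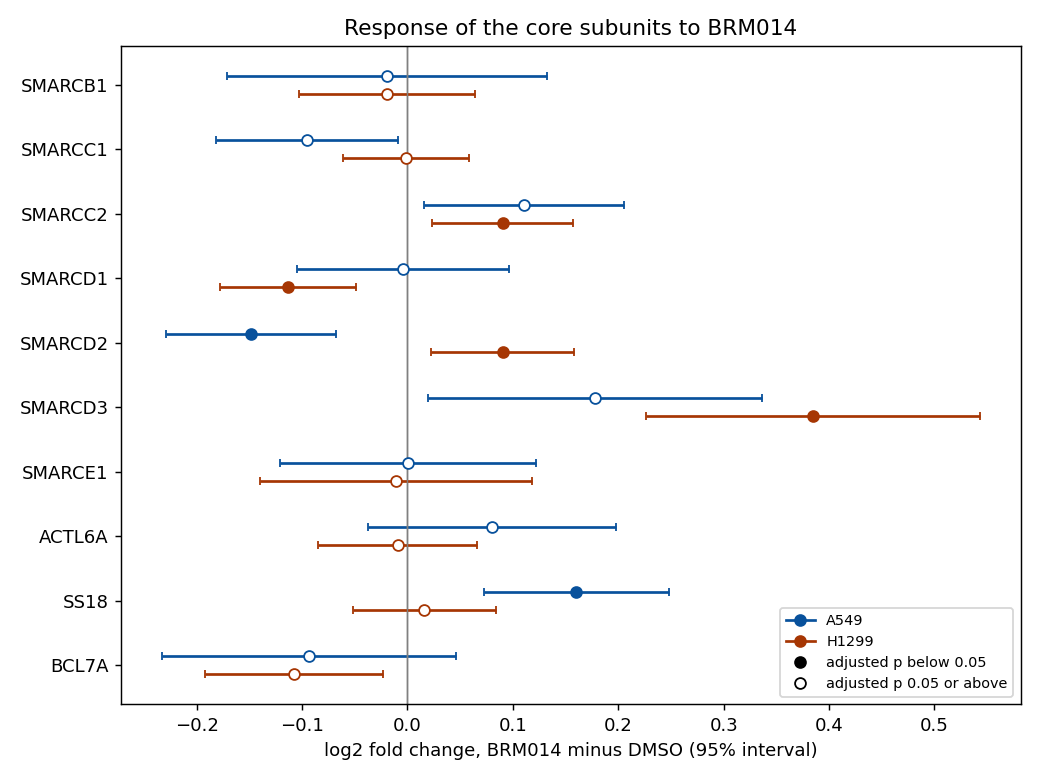
Log2 fold change (x axis, BRM014 minus DMSO) of each of the 10 genes in A549 (blue) and H1299 (brown), with 95% intervals from edgeR and 3 libraries per group. Filled points passed an adjusted p of 0.05. SMARCD2 lies at -0.15 in A549 and 0.09 in H1299, and SMARCD3 in H1299 lies farthest from 0, at 0.38.

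Whether the lines responded differently was tested with the interaction of line and treatment in the joined fit. Of the 10 members 1 passed, SMARCD2, where 19.5% of all 16466 genes tested passed, 10.2% with a more positive response in H1299 and 9.25% with a more negative one. Its response was more positive in H1299 by 0.26 on the log2 scale (standard error 0.05, 95% interval 0.16 to 0.37, adjusted p = 0.00061 in edgeR), falling in A549 and rising in H1299. It passed in each alternative that kept more than 1 library per group, with differences from 0.22 to 0.28, although its rise in H1299 alone was close to the threshold. Without both unnumbered A549 libraries, which leaves 1 treated A549 library, the difference was 0.28. That refit and the refit without DMSO replicate 1 and library a were chosen after seeing the data. All of these refits reuse the same 12 libraries.

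For SMARCD3 the response in H1299 minus that in A549 was 0.23 (95% interval 0.02 to 0.44, adjusted p = 0.126 in edgeR). For SMARCC1 it was 0.12 (0.0093 to 0.23, adjusted p = 0.126) and for SS18 -0.12 (-0.24 to -0.0066, adjusted p = 0.137). A difference between the lines was thus not shown for these 3 genes after adjustment. SS18 passed with library totals (difference -0.16, adjusted p = 0.039). For SMARCC2, which had a like fold change in each line, the difference was 0.0036 with an interval from -0.11 to 0.12.

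Ratios of counts of paralogous subunits within a library do not depend on how libraries are scaled. The length of a gene's transcripts cancels when ratios are compared between groups, provided that it is the same in these groups. Whether transcript forms differed between groups or lines was not tested. Log2 ratios of SMARCC2 to SMARCC1, SMARCD2 to SMARCD1 and SMARCD3 to SMARCD1 were compared for both treatments and for the lines in DMSO, which makes 9 comparisons. The groups did not overlap in any of the 9. The share of other gene pairs without overlap was not computed. Among single genes, treated and control libraries did not overlap in 48.2% in A549 and 35.2% in H1299. The 9 comparisons also share genes and DMSO libraries, so they are not independent. With 3 libraries against 3 the exact two-sided permutation test cannot go below p = 0.1, and each comparison gave this value, as did its Benjamini-Hochberg adjusted p.

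The ratio of SMARCC2 to SMARCC1, the core dimer, was higher in every BRM014 library than in every control of its line. In A549 the log2 ratio of SMARCC2 to SMARCC1 was -0.33, -0.36 and -0.43 in DMSO replicates 1, 2 and 3, and -0.11, -0.23 and -0.16 in BRM014 libraries a, b and replicate 3. The difference of the means was 0.21, a 1.15-fold higher ratio. In H1299 the ratio was -0.93, -0.90 and -0.89 with DMSO and -0.79, -0.84 and -0.80 with BRM014, in replicates 1, 2 and 3, a difference of 0.09. The replicate SD was at most 0.06 in these 4 groups. In A549 neither gene passed the test alone, and in H1299 SMARCC2 did.

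Within the BAF60 family the ratio of SMARCD2 to SMARCD1 was lower with BRM014 in A549 and higher in H1299. In A549 it was 0.32, 0.40 and 0.36 in DMSO replicates 1, 2 and 3, and 0.20, 0.19 and 0.25 in BRM014 libraries a, b and replicate 3, a difference of -0.15. In H1299 it was -0.42, -0.41 and -0.36 with DMSO and -0.18, -0.18 and -0.23 with BRM014, in replicates 1, 2 and 3, a difference of 0.20. The ratio of the lines in DMSO differed by -0.76, so for this ratio the treated groups were nearer to each other than the controls. For SMARCC2 to SMARCC1 the treated groups were farther apart than the controls. Its means in A549 and H1299 were -0.37 and -0.90 with DMSO, and -0.17 and -0.81 with BRM014.

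The ratio of SMARCD3 to SMARCD1 was higher with BRM014 in both lines. In A549 the log2 ratio was -2.73 ± 0.10 with DMSO and -2.55 ± 0.02 with BRM014 (SD, n = 3), a difference of 0.18. In H1299 it was -3.93 ± 0.04 and -3.44 ± 0.09, a difference of 0.49 or 1.41-fold. These ratios share SMARCD1 with the ratios of SMARCD2, so they are not independent of them. In H1299 both genes passed the test alone, in opposite directions.

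**Figure D2:**
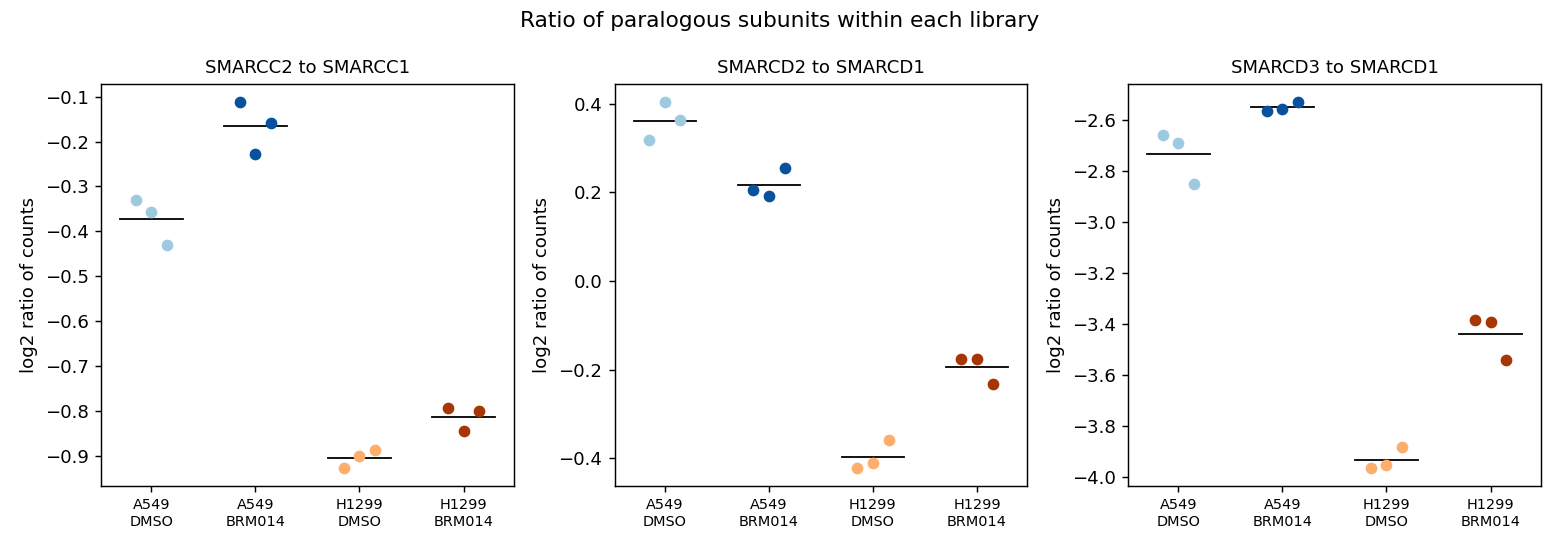
Log2 ratio of counts (y axis) of SMARCC2 to SMARCC1, SMARCD2 to SMARCD1 and SMARCD3 to SMARCD1 in each of the 12 libraries, by line and treatment. Points are libraries and bars are means of 3. With BRM014 the ratio of SMARCD2 to SMARCD1 differs by -0.15 in A549 and by 0.20 in H1299, and the log axes differ between panels.

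For each of the 10 genes the difference between the lines in DMSO was larger than the change with BRM014 in either line. In DMSO all 10 members passed the test between H1299 and A549, 7 higher and 3 lower in H1299, where 85.7% of all 16466 genes tested passed, 42.9% higher and 42.8% lower. The median log2 difference was 0.36 over the members and 0.02 over all genes, and the median absolute differences were 0.53 and 0.84. The levels in this comparison are CPM scaled over the 12 libraries together, which are not the same values as those scaled within a line. Line, growth medium (F12-K for A549 and RPMI for H1299) and PCR cycles (9 for A549 and 8 for H1299) cannot be told apart.

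SMARCE1 showed the widest gap and was lower in H1299. It had 57.8, 60.2 and 62.6 CPM in A549 DMSO replicates 1, 2 and 3 and 17.4, 17.5 and 18.0 CPM in H1299 DMSO replicates 1, 2 and 3. No library of one line came near those of the other, and the level was 3.42-fold lower in H1299 (log2 difference -1.77, standard error 0.06, adjusted p = 2.0e-19 in edgeR). Over all genes tested, 25.8% had a larger absolute difference between the lines. The A549 level was 59.3 ± 3.82 CPM and the H1299 level 17.5 ± 0.647 CPM with BRM014 (SD, n = 3).

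SMARCB1, which joins SMARCE1 in BAF and PBAF, had the opposite direction. It had 33.9, 36.2 and 31.4 CPM in A549 DMSO replicates 1, 2 and 3, and 58.7, 55.8 and 56.6 CPM in H1299. The groups were far apart, with a 1.69-fold higher level in H1299 (log2 difference 0.76, standard error 0.06, adjusted p = 9.2e-12 in edgeR). SMARCC1 was 1.67-fold higher in H1299, with 150, 146 and 153 CPM in A549 and 256, 247 and 249 CPM in H1299 (log2 difference 0.74, standard error 0.04, adjusted p = 1.7e-15). SMARCC2 had 116 ± 3.13 CPM in A549 and 134 ± 1.19 CPM in H1299 (SD, n = 3; log2 difference 0.21, adjusted p = 3.1e-05).

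The BAF60 family was divided between the lines. SMARCD1 was higher in H1299, at 147 ± 3.10 CPM against 115 ± 5.04 CPM in A549 (SD, n = 3; log2 difference 0.35, adjusted p = 1.7e-08 in edgeR). SMARCD2 was lower there, at 112 ± 1.76 against 148 ± 2.28 CPM (log2 difference -0.41, adjusted p = 2.3e-10). SMARCD3 was lower too, with 19.0, 17.0 and 16.1 CPM in A549 DMSO replicates 1, 2 and 3 and 9.66, 9.41 and 9.83 CPM in those of H1299. That is a 1.80-fold lower level in H1299 (log2 difference -0.85, standard error 0.07, adjusted p = 1.0e-10). With BRM014 the level of SMARCD3 was 12.6 ± 0.678 CPM in H1299 and 19.3 ± 0.354 CPM in A549 (SD, n = 3), and in this scaling the lowest treated and the highest control A549 library overlapped at 18.9 and 19.0 CPM.

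The subunits that join the ATPase were all higher in H1299. ACTL6A had 92.8 ± 6.06 CPM in A549 and 122 ± 3.06 CPM in H1299 (SD, n = 3; log2 difference 0.40, adjusted p = 1.6e-07 in edgeR). SS18 had 94.3 ± 2.50 and 123 ± 3.08 CPM (log2 difference 0.38, adjusted p = 3.0e-09), and its A549 level with BRM014, 104 ± 2.56 CPM, remained below that of H1299. BCL7A had 32.3 ± 1.85 and 50.5 ± 0.929 CPM (log2 difference 0.65, adjusted p = 2.8e-11). With libraries scaled by their totals alone the median of all genes moved by 0.23 toward H1299. The 10 members kept their direction and their call under each of 14 alternatives, and with library totals the log2 difference was 0.43 for SMARCC2, -0.18 for SMARCD2 and -1.55 for SMARCE1. The smallest of the 10 differences was thus that of SMARCC2 with TMM factors and that of SMARCD2 with library totals.

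**Figure D3:**
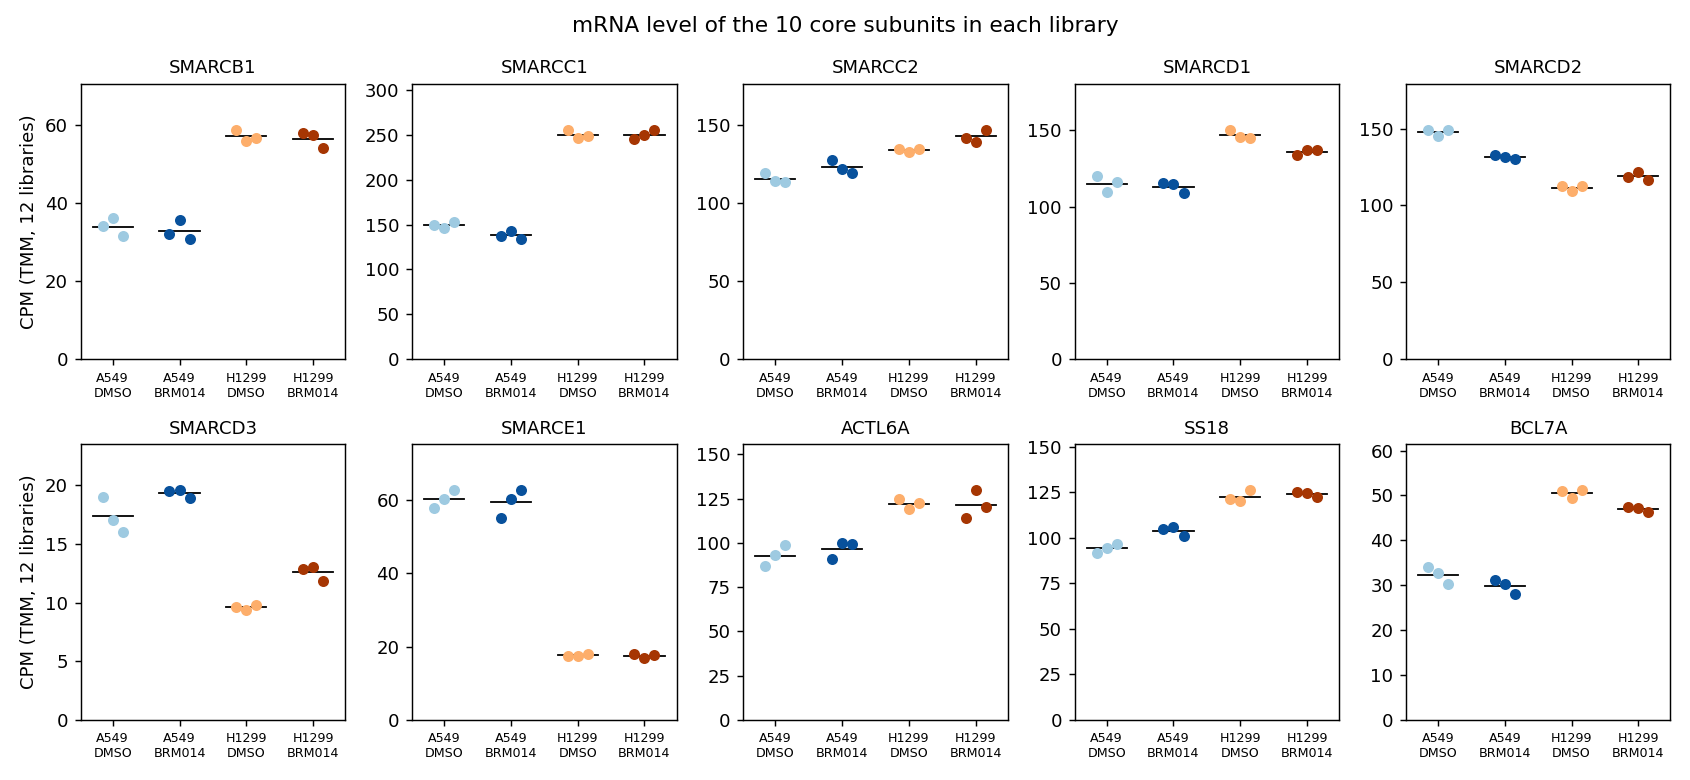
Level of each gene in CPM (y axis from 0, TMM scaling over the 12 libraries) in each library, by line and treatment. Points are libraries and bars are means of 3. The gap between the lines is widest for SMARCE1, at 60.2 against 17.6 CPM in DMSO, while differences with BRM014 are small beside it.

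**Figure D4:**
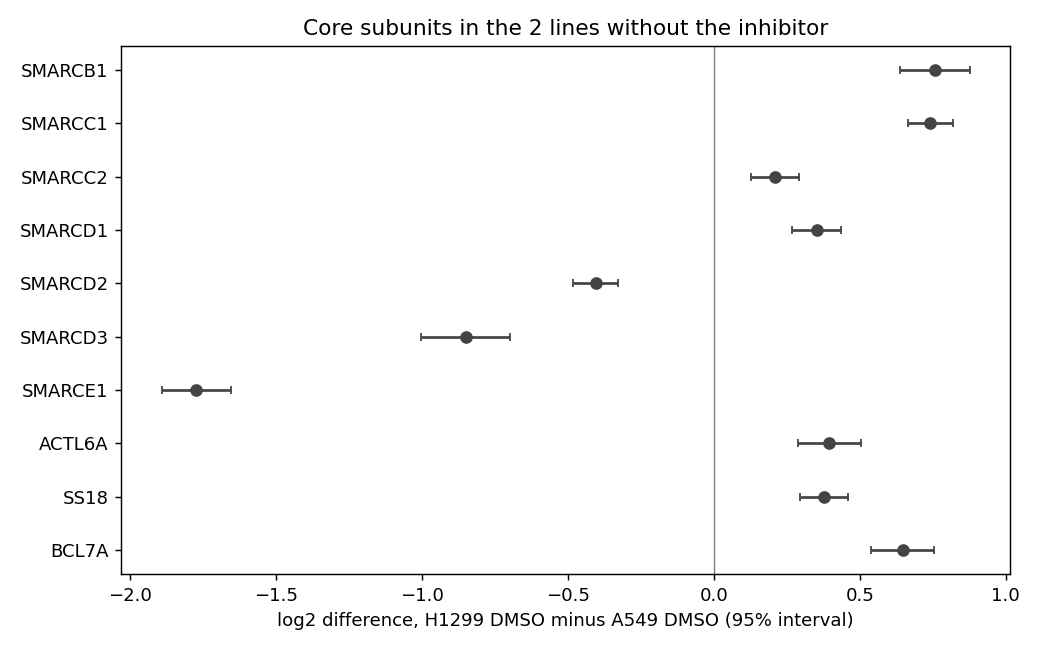
Log2 difference between H1299 and A549 in DMSO (x axis) for each of the 10 genes, with 95% intervals from edgeR. Positive values are higher in H1299. All 10 passed an adjusted p of 0.05, and SMARCE1 at -1.77, SMARCD3 at -0.85 and SMARCD2 at -0.41 lie below 0.

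As a description, the order of the group means in the scaling over 12 libraries was read for each gene. For SMARCB1, SMARCC1, SMARCC2, SMARCD1, ACTL6A, SS18 and BCL7A both H1299 groups stood above both A549 groups, and for SMARCD2, SMARCD3 and SMARCE1 both stood below. Treated and control groups of a line were neighbours in that order for all 10 genes. The smallest gap was for SMARCC1 in H1299, with 250.5 CPM in DMSO and 250.6 CPM with BRM014.

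Deviations of libraries from their group means were compared between members, over the 12 libraries and 45 pairs of genes, as log2 CPM. Pearson correlations ranged from -0.763 to 0.786 with a median of 0.0713, and 24 of the 45 pairs were above 0. The highest was between SMARCD3 and BCL7A (0.786), then between SMARCC1 and SMARCD1 (0.724) and between SMARCC2 and BCL7A (0.663). The lowest was between SMARCC2 and ACTL6A (-0.763), then between ACTL6A and BCL7A (-0.723) and between SMARCE1 and BCL7A (-0.661). The points share depth and scaling factors, so these values only describe which subunit genes varied together between replicates. They include A549 DMSO replicate 1 and library a, which deviated together over all genes (r = 0.69). In these libraries ACTL6A was the lowest of its group (80.2 and 85.1 CPM) and SMARCC2 the highest (110 and 119 CPM). How far this shared deviation enters the correlations was not tested.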

How the data were processed

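The authors deposited raw counts per gene for each line, as whole numbers with no normalization, 1 column per library. The submitters' processing notes name build hg38, featureCounts, DESeq2, STAR 2.7.3a, Bowtie 1.2.2 and cutadapt 1.14, without their roles. Annotation and strand setting were not given in the sources used, so overlapping and antisense genes are uncertain. Per the labels' protocols, spike-ins were added by cell number and ribosomal RNA was removed from 500 ng of total RNA. Spike-in counts were not used here, so each difference is relative to the library as a whole. The number of value columns that fitted no sample or group was 0.

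The tables give identifiers without symbols. The symbols of the 10 members came with their identifiers in the definition of the gene set. The name tables at hand are for mouse and matched 0 of the 10. Other subunit genes, cell line markers, gene positions, transcript lengths and sequences were therefore not used here.

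The tests used edgeR 4.0.16 under R 4.3.3: filterByExpr (minimum count 10, total 15), TMM scaling, and two-sided quasi-likelihood tests (glmQLFit, glmQLFTest) over all genes, Benjamini-Hochberg adjusted, with a threshold of 0.05. Each line was fitted alone. A joined fit of all 12 libraries gave the interaction and the difference between lines in DMSO. Standard errors are the log2 fold change over the square root of F. The rule for named genes took all 10 members. The rule for members uses subunit identity and no measured value, but the gene set, lists and tests were proposed with earlier results of these data known. No replicates agreed within sampling noise (chi-square per degree of freedom 2.20 to 11.1). Alternatives were other scalings, DESeq2 1.42.0, limma-voom (limma 3.58.1), other filters, leaving out libraries and a replicate block. They reuse the same libraries, so they are no independent support. The steps were tested on simulated data with independent libraries. Changes planted there were larger than every call with BRM014 within a line except that of SMARCD3 in H1299. The simulation therefore does not bear on the smaller calls.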

Additional observations from a re-analysis of the deposited data

Results flagged for a closer look

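SMARCD2 stood out because its response to BRM014 differed between the lines by the interaction test, by 0.26 on the log2 scale (response in H1299 minus response in A549, standard error 0.05, adjusted p = 0.00061 in edgeR). It was lower in 3 of 3 treated A549 libraries and higher in 3 of 3 treated H1299 libraries than in any control of the line. Over 21 alternatives the adjusted p was 4.0e-06 to 0.0034.

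The log2 ratio of SMARCD2 to SMARCD1 stood out because all treated libraries moved one way in A549 (-0.15) and the other way in H1299 (0.20). The difference of these ratios between the lines was not tested. It uses the same SMARCD2 counts as the interaction and is no separate support.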

How the results depend on the processing

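The members called numbered 2 in A549, and 2 to 4 without a library, with 4 without DMSO replicate 1. They numbered 3 with library totals and 3 in the joined fit. Chosen after seeing the data, leaving out both unnumbered libraries gave 1, and leaving out DMSO replicate 1 with library a gave 4. In H1299 the 4 members called became 2 in DESeq2 and 1 in the joined fit, and 1 to 3 without a library, with 1 without DMSO replicate 1. The interaction called 2 members with library totals in place of 1. All 10 members were called between the lines in DMSO in each alternative run. The cause of these shifts was not tested.

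Log2 values that changed sign were small and past no threshold. With library totals, A549 gave 0.030 for SMARCB1 and 0.046 for SMARCD1, H1299 gave 0.013 for SMARCB1, 0.031 for SMARCC1, 0.021 for SMARCE1 and 0.023 for ACTL6A, and the interaction gave -0.016 for SMARCB1, -0.036 for SMARCC2, -0.026 for SMARCE1 and -0.030 for BCL7A. SMARCE1 in A549, at 0.00025, turned to -0.0042 with DESeq2 size factors and in DESeq2, -0.0017 in limma-voom, -0.0043 with no filter and -0.022 in the joined fit. The 5 CPM filter gave 0.0016 for SMARCD1 in A549 and 0.0041 for SMARCC1 in H1299, which was 0.0015 with no filter and 0.00024 in the joined fit. The interaction of SMARCE1 was -0.067 without both unnumbered libraries and -0.0020 without DMSO replicate 1 and library a.

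Without a library in turn, A549 gave -0.078 to 0.026 for SMARCB1, -0.041 to 0.029 for SMARCD1 and -0.044 to 0.033 for SMARCE1. H1299 gave -0.039 to 0.0092 for SMARCB1, -0.018 to 0.011 for SMARCC1, -0.036 to 0.026 for SMARCE1 and -0.057 to 0.029 for ACTL6A. The interaction gave -0.029 to 0.087 for SMARCB1, -0.026 to 0.029 for SMARCC2, -0.038 to 0.045 for SMARCE1 and -0.040 to 0.059 for BCL7A. Paralog ratios kept their sign and moved by less than 1 SD with 1 count added and without each library. Leaving out a library could not have given otherwise. The groups did not overlap, and with 3 libraries in a group 1 of them cannot move the mean by 1 SD. These refits are therefore no support for the ratios.

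A block by replicate number left 2 members called in H1299, since SMARCC2 (adjusted p = 0.055) and SMARCD2 (0.063) missed the threshold. The interaction kept its 1 member with a block within H1299. Same-numbered H1299 libraries deviated with correlations of -0.086, -0.026 and 0.029. With 3 libraries per group these values cannot settle whether such libraries shared a culture or batch, which was not tested. In A549 the pair numbered 3 had r = 0.48, a value that depends on those of the other A549 pairs and does not show pairing. No block was fitted in A549, since 2 of its treated columns carry no number of their own.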
